A study of Homo sapiens with 18 samples.

Results

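The 10 genes described here encode the core and the accessory subunits of Polycomb repressive complex 2 (PRC2): EZH2, EZH1, EED, SUZ12, RBBP4, RBBP7, JARID2, AEBP2, PHF19 and MTF2. They were chosen by name among 19671 protein-coding genes with a usable start, and all peaks from 3 kb upstream of each gene to its end were taken as its peaks. Chromatin immunoprecipitation sequencing of H3K4me3 and H3K27me3 was done in V16D, a castration-resistant line derived from LNCaP prostate cancer cells. Control cells (V16D/CTL) were compared with cells transduced with a lentivector overexpressing the long noncoding RNA H19 (V16D/H19). Each group had 3 biological replicates for each mark, and every replicate had its own input library, so 12 peak lists came from 18 libraries. H19 was driven by a vector and not by its own locus. The comparison asks how the marks at these genes differ when H19 is overexpressed. The paper mentions a control lentivirus for its transductions in general. For this experiment it names only V16D control cells, and an effect of transduction itself was not tested.

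PRC2 methylates lysine 27 of histone H3 and thereby keeps developmental genes silent. EZH2 and EZH1 are its alternative catalytic subunits, EED binds the methylated product and stimulates the enzyme, SUZ12 holds the complex together, and RBBP4 and RBBP7 bind histones. JARID2 and AEBP2 define one form of the complex, while PHF19 and MTF2 are Polycomb-like subunits of the other. H3K4me3 marks the starts of active or poised genes, and EZH2 is widely studied in aggressive prostate cancer.

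The H3K4me3 lists held 20048 to 21934 peaks and the H3K27me3 lists 55060 to 72289 peaks. Read depth was not used here, and a site without a peak may still carry the mark. Among luminal prostate markers, 5 of 6 (KLK2, KLK3, TMPRSS2, HOXB13 and KRT18) had an H3K4me3 promoter peak in all 6 libraries, and KRT8 had none within 1 kb of its start. The basal and leukocyte markers had no H3K4me3 promoter peak in any library, whereas COL1A1 of the fibroblast list had one in all 6 and COL1A2 and PDGFRB had none. Of the neuroendocrine markers, SYP had one in all 6 libraries, CHGB in 0 V16D/CTL and 2 V16D/H19 libraries, INSM1 in 0 and 1, and CHGA in none. The part of these differences in the results was not tested.

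The 250 bases upstream of 7 starts are shown to let the sequence at the promoters be read beside the marks. They are the promoter of EZH2, the 5 promoters of these genes that hold an E2F core, and the second PHF19 start, which had peaks of its own. Sequences are from RefSeq on GRCh38.p14, 5′ to 3′ on the strand of the gene, and capitals mark matches to the E2F core TTTNNCGC or TTTNNGCGC on either strand. They are EZH2 (chr7:148884292-148884541, minus), EZH1 (chr17:42745041-42745290, minus), SUZ12 (chr17:31936757-31937006, plus), RBBP7 (chrX:16870363-16870612, minus), AEBP2 (chr12:19440349-19440598, plus), PHF19 at its first start (chr9:120877189-120877438, minus) and at its second (chr9:120868912-120869161, minus).
EZH2: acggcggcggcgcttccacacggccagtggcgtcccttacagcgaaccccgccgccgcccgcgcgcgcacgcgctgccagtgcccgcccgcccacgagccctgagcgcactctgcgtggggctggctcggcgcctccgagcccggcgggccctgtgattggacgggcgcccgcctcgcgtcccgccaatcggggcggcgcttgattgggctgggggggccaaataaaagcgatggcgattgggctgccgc
EZH1: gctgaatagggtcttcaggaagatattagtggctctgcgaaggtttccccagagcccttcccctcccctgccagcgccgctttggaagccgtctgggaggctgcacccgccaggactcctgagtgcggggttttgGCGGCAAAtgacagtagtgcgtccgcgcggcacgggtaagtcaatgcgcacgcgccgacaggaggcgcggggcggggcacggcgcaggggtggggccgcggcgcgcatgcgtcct
SUZ12: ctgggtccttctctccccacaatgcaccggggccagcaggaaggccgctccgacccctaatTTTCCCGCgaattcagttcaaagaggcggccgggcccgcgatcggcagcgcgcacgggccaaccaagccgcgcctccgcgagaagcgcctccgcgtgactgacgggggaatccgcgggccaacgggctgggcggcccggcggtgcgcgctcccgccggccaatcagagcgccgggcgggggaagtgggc
RBBP7: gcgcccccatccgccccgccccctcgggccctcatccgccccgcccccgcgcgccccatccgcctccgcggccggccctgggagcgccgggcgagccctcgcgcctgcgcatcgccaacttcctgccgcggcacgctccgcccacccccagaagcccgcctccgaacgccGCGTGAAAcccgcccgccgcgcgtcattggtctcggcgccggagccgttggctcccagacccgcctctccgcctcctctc
AEBP2: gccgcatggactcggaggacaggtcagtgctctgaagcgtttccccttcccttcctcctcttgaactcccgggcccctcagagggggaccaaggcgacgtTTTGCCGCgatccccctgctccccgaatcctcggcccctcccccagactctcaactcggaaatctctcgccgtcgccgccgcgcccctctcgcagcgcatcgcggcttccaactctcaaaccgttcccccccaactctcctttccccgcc
PHF19 first start: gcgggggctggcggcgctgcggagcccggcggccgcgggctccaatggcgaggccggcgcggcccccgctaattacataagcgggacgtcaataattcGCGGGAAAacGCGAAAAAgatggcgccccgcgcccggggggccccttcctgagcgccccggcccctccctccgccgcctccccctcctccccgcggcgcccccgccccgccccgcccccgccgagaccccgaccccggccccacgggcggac
PHF19 second start: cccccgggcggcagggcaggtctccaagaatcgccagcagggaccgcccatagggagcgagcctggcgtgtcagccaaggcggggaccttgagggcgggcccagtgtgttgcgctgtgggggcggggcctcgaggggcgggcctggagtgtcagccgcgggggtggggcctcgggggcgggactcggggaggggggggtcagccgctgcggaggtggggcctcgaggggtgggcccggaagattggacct

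All 10 genes matched the RefSeq promoter table, with 15 listed starts. The E2F core was present upstream of 5 of the 15 starts, compared with 7.11% of all 35116 promoters of the table. The CCAAT box (CCAAT, either strand) was present upstream of 10 of the 15, compared with 32% of all promoters, and EZH2 held 4 copies at its upstream start. The NRF1 pattern GCGCNTGCG was present upstream of 4 (6.54% of all), the YY1 pattern AANATGGC of 2 (3.86%) and the ETS pattern CCGGAAG of 1 (8.52%). The promoters were rich in CG pairs, with a median of 34 in 250 bases (range 11 to 48, lowest at EED) against 11 over all promoters. These matches describe letters only. They were not tested.

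All 10 PRC2 genes carried an H3K4me3 peak within 1 kb of a listed start in 6 of 6 libraries. The same held for 12421 of the 19671 protein-coding genes. The median of the mean fold over input was 55.8 for the 10 genes and 48.8 for the 12421 promoters with a peak in every library, and JARID2, EZH1 and PHF19 lay below the latter. The level here is the fold over input at the summit of the strongest promoter peak, a linear ratio that does not depend on gene length. EED was highest (69.6 ± 18.6, SD over 6 libraries), followed by EZH2 (63.4 ± 14.5), MTF2 (62.2 ± 16.7), SUZ12 (61.4 ± 12.6), AEBP2 (56.9 ± 10.5), RBBP7 (54.7 ± 6.66) and RBBP4 (54.5 ± 15.7). JARID2 (42.7 ± 10.5), EZH1 (32 ± 7.68) and PHF19 (25.1 ± 5.49) were lowest. The PHF19 values came from different starts in different libraries, as given below. The step from JARID2 to EZH1 was the only one between neighbours in this order that exceeded the larger of their SDs. EZH1 lay below its homologue EZH2 in every library.

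Among the catalytic subunits, the EZH2 promoter stood at 75.6, 49.7 and 76.2 fold over input in V16D/CTL and at 62, 42.7 and 74.3 in V16D/H19. The groups overlapped, and replicate 2 was the lowest of each. The log2 difference, V16D/H19 minus V16D/CTL, was -0.24 (SE 0.31, 95% interval -0.88 to 0.40, adjusted p = 0.932, limma across all promoters). EZH1 stood at 45.3, 32 and 27.6 in V16D/CTL and at 35.9, 25.3 and 25.9 in V16D/H19. These values overlapped as well, with a log2 difference of -0.32 (SE 0.29, interval -0.92 to 0.28, adjusted p = 0.889, limma).

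The EED promoter stood at 54.9, 78.3 and 85.1 in V16D/CTL and at 83.8, 76.6 and 38.7 in V16D/H19. Its spread was wide in both groups, with the lowest value in V16D/H19 replicate 3. SUZ12 stood at 69.8, 69.3 and 63.4 in V16D/CTL and at 71.5, 38.5 and 56 in V16D/H19. This was the most negative difference of the 10 genes, at -0.39 (SE 0.30, interval -1.01 to 0.23, adjusted p = 0.868, limma), yet the highest value of all 6 libraries was in V16D/H19. Without V16D/H19 replicate 2 it was -0.11, and EED, at -0.35, was more negative. The EED difference was -0.25 (SE 0.32, interval -0.92 to 0.43, adjusted p = 0.937, limma).

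The histone binder RBBP4 stood at 73.1, 52 and 29 in V16D/CTL and at 68.8, 54.3 and 49.7 in V16D/H19. RBBP7, its close homologue, stood at 63.6, 47.8 and 47.1 in V16D/CTL and at 59.3, 52.5 and 58 in V16D/H19. For both, the V16D/H19 values lay within those of V16D/CTL, with differences of 0.19 (interval -0.46 to 0.85, adjusted p = 0.957) and 0.05 (interval -0.52 to 0.62, adjusted p = 0.991, limma). In V16D/H19 replicate 1, the RBBP4 value of 68.8 belonged to a peak that ended upstream of the RBBP4 start. The peak over that start stood at 54.5.

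Of the accessory subunits, AEBP2 was the only gene whose groups did not overlap. It stood at 54, 52.2 and 46.3 in V16D/CTL and at 54.1, 77 and 58 in V16D/H19, so that the nearest values of the groups were almost equal. Such separation occurred upward at 5.6% and downward at 5.98% of the 12421 promoters, so 1 of 10 genes is near the background, and the difference of 0.23 was not called (SE 0.27, adjusted p = 0.922, limma). JARID2, which helps recruit the complex, stood at 53.7, 23.6 and 41.3 in V16D/CTL and at 41.7, 46.1 and 50.1 in V16D/H19. MTF2, a DNA-binding subunit, stood at 76.4, 31.4 and 66.7 in V16D/CTL and at 75.8, 56.9 and 66 in V16D/H19. Both had their lowest value in V16D/CTL replicate 2 and groups that overlapped, with differences of 0.23 (interval -0.41 to 0.87) and 0.22 (interval -0.46 to 0.90).

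In all, 0 of 10 PRC2 promoters were called at an adjusted p of up to 0.05, where 1 of 12421 promoters was called (0.00805%). None of the 10 reached an unadjusted p under 0.05, which 6.54% of all promoters did. The 10 differences ran from -0.39 to 0.23 with a median of 0.01, 5 above 0 and 5 below, and the median over all promoters was -0.01. In simulated data of this size, 0% of changes of 0.5 and 26% of changes of 1 on the log2 scale were recovered, against 99.5% of changes of 2. The simulated promoters shared a common SD, taken from the V16D/CTL libraries, and 200 were changed. Real promoters differ in spread, so these shares are only a guide. Changes of 0.5, larger than those seen at these genes, were not recovered in such data. The missing calls do not show that the promoters were equal.

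**Figure D1:**
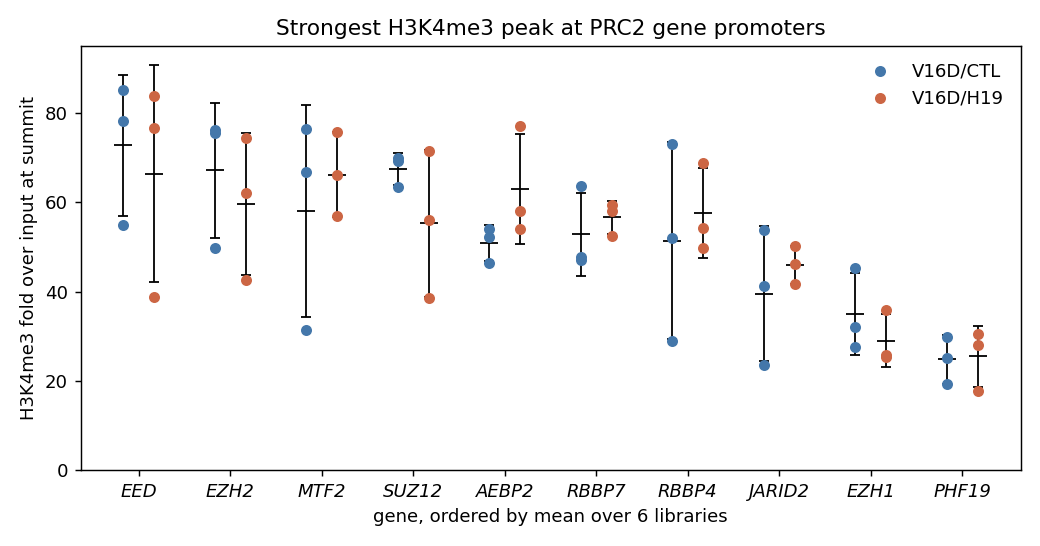
H3K4me3 fold over input at the summit of the strongest promoter peak (linear axis), for each gene in V16D/CTL (blue) and V16D/H19 (orange); points are libraries, bars the mean and SD of 3. The groups overlap at every gene but AEBP2, and EZH1 and PHF19 sit lowest. The PHF19 points come from different starts in different libraries.

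**Figure D2:**
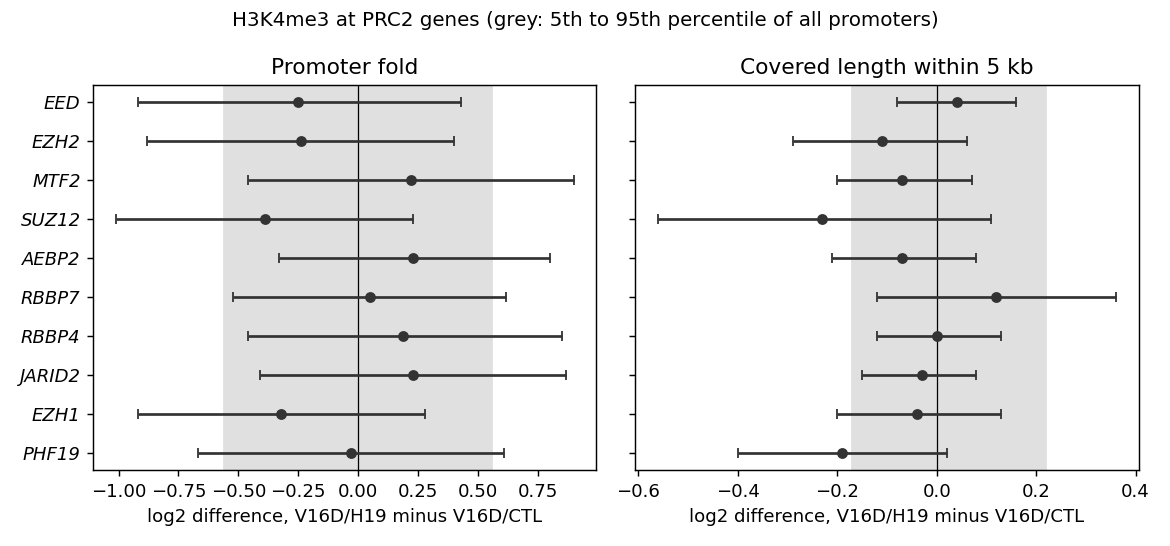
Log2 differences, V16D/H19 minus V16D/CTL, with 95% intervals for promoter fold (left) and covered length (right); grey spans the 5th to 95th percentile of 12421 promoters. Every interval includes 0. The promoter fold of PHF19 draws on different starts in different libraries.

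The length of DNA under H3K4me3 peaks within 5 kb of the starts was measured as well. JARID2 had the broadest domain, with a median of 4740 bases, and SUZ12 the narrowest, with 1438 bases, against 2235 bases over all promoters. No gene was called (0 of 10), where 0.113% of promoters were called, and the log2 differences ran from -0.23 (SUZ12) to 0.12 (RBBP7). PHF19 was the only gene whose groups did not overlap: 3211, 2547 and 2666 bases in V16D/CTL and 2491, 2470 and 2379 bases in V16D/H19. Every V16D/H19 library was lower, a difference of -0.19 (SE 0.09, interval -0.40 to 0.02, adjusted p = 0.619, limma). Groups separated in this direction at 6.15% of promoters and in the other at 7.56%, so 1 of 10 is again near the background.

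PHF19 has 2 listed starts, 120877188 and 120868911 on chromosome 9, both with peaks within 1 kb in all 6 libraries. The first start lay under a peak in every library, whereas the second lay under a peak in V16D/CTL replicate 1 alone and between 2 flanking peaks in the other 5. At the first start the fold was 25.2, 19.2 and 29.9 in V16D/CTL, against 21, 13 and 28.1 in V16D/H19. At the second it was 15.5, 14.3 and 20.3 in V16D/CTL and stood at 30.6, 17.8 and 21.6 in V16D/H19. The groups overlapped at both, and the differences had opposite signs: -0.36 (SE 0.32, adjusted p = 0.876) at the first and 0.40 (SE 0.30, adjusted p = 0.862) at the second (limma, each start as its own promoter). The PHF19 value used for the gene came from the first start in V16D/CTL and in V16D/H19 replicate 3. In V16D/H19 replicates 1 and 2 it came from the second. The difference for the gene, -0.03 (SE 0.31, interval -0.67 to 0.61, adjusted p = 0.994, limma), therefore mixes 2 promoters. Whether the starts differed from each other was not tested. The peak at the first start overlapped a site that the authors' table of differential H3K4me3 sites places at chr9:120875644-120878521, within 1 kb of a start. The authors' mean concentration there, a log2 of normalised reads, was 7.97 in V16D/CTL and 7.51 in V16D/H19. Of 16 merged H3K4me3 regions in the windows of the 10 genes, this was the only one listed, where 7.15% of 20708 regions overlapped a site listed as lower in V16D/H19.

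Of the same 16 regions, 13 had a peak in all 6 libraries, as did 76.4% of all 20708 regions. Another 1 had a peak in the 3 V16D/CTL libraries and in no V16D/H19 library. That region lay upstream of SUZ12 at chr17:31936361-31936773, from -646 to -234 bases relative to the start, and ended within the first bases of the SUZ12 sequence above. Its peaks were weak, at 5.68, 5.32 and 6.03 fold over input, with −log10 q of 5.95, 4.86 and 6.52, so that the second did not reach a stricter threshold of 5. Such regions made up 0.41% of the 20708 regions. The SUZ12 start itself lay under a peak of 660 to 712 bases in every library. SUZ12 has a near-identical partial copy, SUZ12P1 on chromosome 17, which held a peak of 626 to 687 bases at 28 to 89.2 fold in all 6 libraries, so reads of the copies may be shared and the SUZ12 values are uncertain. RBBP4 and EED have pseudogenes too. Shared reads there, and copies of the other genes, were not examined.

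**Figure D3:**
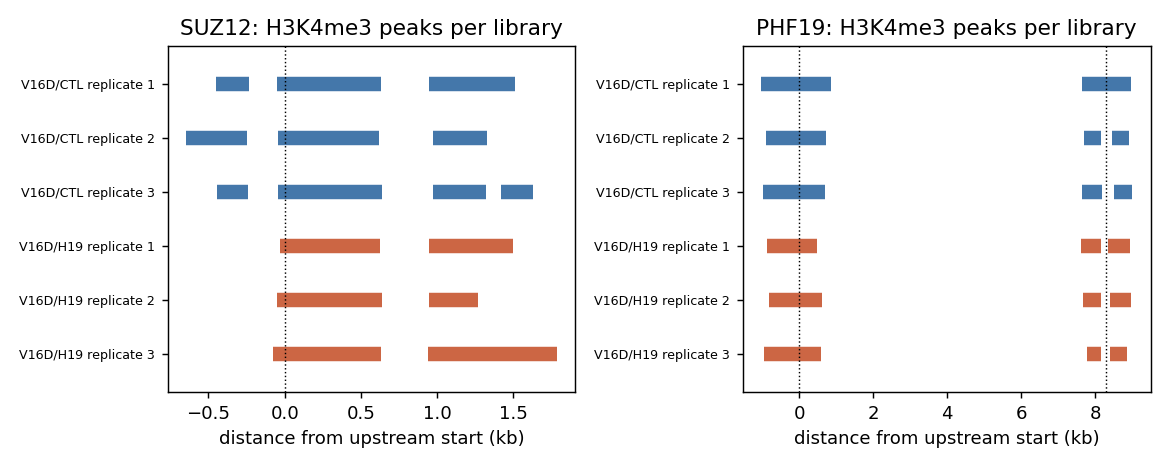
Position of each H3K4me3 peak (bars) at SUZ12 and PHF19 by library, in kb from the upstream start; dotted lines mark listed starts. The small peak upstream of SUZ12 is present in the 3 V16D/CTL libraries (blue) and in 0 V16D/H19 libraries (orange).

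Inside the JARID2 gene, 276 kb long, 2 further regions held weak peaks. The first, about 152 kb past the second start, had peaks in 1 V16D/CTL and 3 V16D/H19 libraries, and the other, about 256 kb past it, in 1 and 2. Their folds of 3.11 to 6.52 were far under that of the JARID2 promoter. The number of H3K4me3 peaks in all 10 windows in V16D/CTL was 15, 17 and 17, against 19, 17 and 15 in V16D/H19. The counts of the groups overlapped (two-sided exact permutation p = 1, difference 0.667, n = 3 per group, smallest possible p = 0.1). The RBBP4 region also covers the divergent start of ZBTB8OS, 276 bases upstream. It held 2 separate peaks, 1 over each start, in V16D/CTL replicate 2 and V16D/H19 replicate 1. In the other libraries 1 peak covered both starts, so the marks of these genes cannot be told apart there. The JARID2 domain covers the starts of JARID2-DT and JARID2-AS1, so their marks cannot be told apart from those of JARID2.

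No H3K27me3 peak was found at any of the 10 genes in any of the 6 libraries. By comparison, 28.1% of the 19671 gene windows had an H3K27me3 peak in at least 1 library, and so did 22% of the 12421 windows with an H3K4me3 promoter peak in all 6. The nearest H3K27me3 peak lay 31.8 to 76.2 kb from the PHF19 window, within 100 kb in 6 of 6 libraries. MTF2 had one within 100 kb in 3 libraries, EZH1 in 2, SUZ12 and AEBP2 in 1 each, and the other 5 genes in 0. No PRC2 gene was listed in the authors' table of differential H3K27me3 sites.

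Other Polycomb genes had the same active mark but not always the same lack of H3K27me3. All 18 PRC1 genes and all 5 PR-DUB genes had an H3K4me3 promoter peak in 6 of 6 libraries, as did 12421 of all 19671 genes. Of the 5 further PRC2-linked genes 4 did, and EZHIP, which encodes an inhibitor of PRC2, had none. No promoter of these lists was called (0 of 18, 0 of 5 and 0 of 4 tested), with median log2 differences of 0.00, 0.17 and -0.03.

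H3K27me3 promoter peaks were present at BMI1 and PCGF5, which encode alternative PCGF subunits of PRC1, and at ASXL3 of PR-DUB. PCGF5 had them in 3 of 3 V16D/CTL and 0 of 3 V16D/H19 libraries. The same held for 0.305% of the 19671 genes. Within 5 kb of its start, 3147, 2770 and 1501 bases lay under H3K27me3 peaks in V16D/CTL, and 830, 1637 and 1389 bases in V16D/H19. These lengths overlapped between groups (two-sided exact permutation p = 0.2, n = 3 per group). BMI1 (means 1918 ± 373 and 1588 ± 164 bases) and ASXL3 (4988 ± 303 and 3787 ± 913 bases) had such peaks in all 6 libraries. The BMI1 promoter H3K4me3 did not overlap between groups, at 34.5, 37.7 and 36.7 in V16D/CTL against 44, 65.9 and 53.9 in V16D/H19. Such separation upward occurred at 5.6% of the 12421 promoters. The BMI1 difference was not called (0.51, SE 0.28, adjusted p = 0.785, limma), and those of the 18 PRC1 genes ran from -0.89 to 0.51. CBX8, a chromodomain subunit of PRC1, was listed in the authors' H3K4me3 table. The authors' mean concentration at that site, chr17:79799882-79801961, was 5.88 in V16D/CTL and 4.46 in V16D/H19. The fold of the strongest CBX8 promoter peak overlapped between groups, with means of 49.1 ± 10.6 and 51.3 ± 17 (SD, n = 3) and a log2 difference of -0.02 (SE 0.30, adjusted p = 0.996, limma). Whether that peak, taken within 1 kb of the start, overlapped the authors' site was not checked, so these measures may cover different regions.

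**Figure D4:**
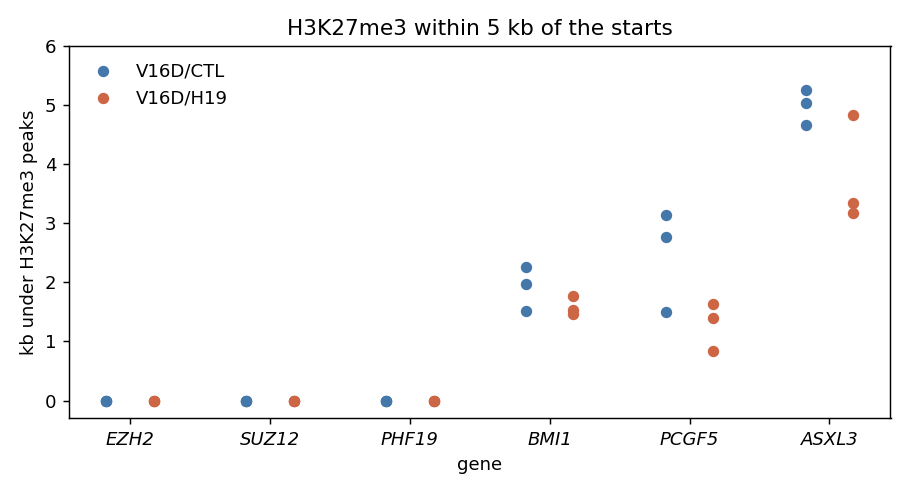
Length under H3K27me3 peaks within 5 kb of the starts (kb) for 3 PRC2 genes and for BMI1, PCGF5 and ASXL3; points are libraries. The PRC2 genes are at 0 in all 6 libraries.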

How the data were processed

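For every library the authors ran MACS2 with the matching input, in narrow mode (H3K4me3) or broad mode (H3K27me3), and made tables of differential sites with DiffBind and ChIPseeker on hg38. Per peak, the deposited lists give the fold over input as a linear ratio, a score, and p-value and q-value as −log10. The deposited tables hold the authors' mean log2 concentration per group. Their columns of fold change, p-value and FDR were not used. Depth was not used, and no counting interval was computed.

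The members and gene lists were chosen with earlier results of these data known. All 10 members are described. From the other lists, genes with an H3K4me3 call, a site in the authors' tables, or an H3K27me3 promoter peak in at least 2 libraries of a group were named, at most 8. A gene that met this rule is not reported here. Starts came from RefSeq GRCh38.p14 (15841 genes) or, failing that, the gene end (3830 genes). The strongest peak within 1 kb of a start was taken, and log2 folds were centred on each library's median and tested with limma 3.58.1 (R 4.3.3) over promoters with a peak in all 6 libraries, with Benjamini-Hochberg adjustment. Covered length (5 kb) was tested likewise on the log2 scale, but without centring. Peak counts were compared with two-sided exact permutation tests over 20 assignments. Overlapping peaks were merged into regions, of which those found in 2 or more libraries were kept. The limma step was tested on simulated data.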

Additional observations from a re-analysis of the deposited data

How the results depend on the processing

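No PRC2 gene was called for promoter fold or covered length under any alternative run. No H3K27me3 peak lay at the 10 genes when the windows began 10 kb upstream. The other H3K27me3 runs could only remove peaks, so their count of 0 was fixed in advance. Replicate numbers showed little pairing of the samples: the deviations of same-numbered libraries correlated at 0.018, 0.033 and 0.0307. Those of differently numbered libraries correlated at -0.0298 to -0.00142. With the replicate block, 0 members were called, the peak difference stayed 0.667 (exact sign-flip p = 1, smallest 0.25), and 6 instead of 14 promoters of all were called for covered length. That count was 28 within 10 kb, 3 at a stricter threshold, and 1 to 22 when 1 library was left out. For promoter fold it was 1, 0 on percentiles, and 0 to 1 with 1 library left out. The difference in H3K4me3 peak number ran from -0.333 (without V16D/H19 replicate 1) to 1.67. With 50% of a peak required inside the promoter, 9 of 10 genes had an H3K4me3 promoter peak in every library, since the JARID2 peak is wider than that window allows.

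Of 125 alternative values for single genes' promoter fold, 12 reversed, in 7 of 10 genes. PHF19 became 0.03 without centring, 2.19 percentile points on percentiles and 0.40 at its second start, an alternative chosen after seeing the data. Without V16D/CTL replicate 2, JARID2 became -0.09, MTF2 -0.17 and RBBP7 -0.01. Without V16D/CTL replicate 3, PHF19 became 0.16 and RBBP4 -0.13. Without V16D/H19 replicate 1, RBBP7 became -0.0032. Without V16D/H19 replicate 2, EZH2 became 0.02 and PHF19 0.25, and without V16D/H19 replicate 3, EED became 0.08. For covered length, 4 of 90 reversed: SUZ12 became 0.01 at the stricter threshold, RBBP4 -0.01 without V16D/CTL replicate 2 and -0.02 without V16D/H19 replicate 3, and EZH1 0.02 without V16D/H19 replicate 3. With 1 library left out, the promoter fold difference ran from -0.48 to 0.08 at EED, -0.44 to 0.02 at EZH2, -0.09 to 0.45 at JARID2, -0.17 to 0.42 at MTF2, -0.20 to 0.25 at PHF19, -0.13 to 0.45 at RBBP4, -0.01 to 0.15 at RBBP7, -0.62 to -0.11 at SUZ12, -0.50 to -0.16 at EZH1 and 0.12 to 0.32 at AEBP2. That of covered length ran from -0.39 to -0.08 at SUZ12, -0.26 to -0.09 at PHF19, 0.04 to 0.20 at RBBP7, -0.08 to 0.02 at EZH1 and -0.02 to 0.03 at RBBP4, and between -0.19 and 0.07 at the other 5 genes. The causes were not tested.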
